A study of Mus musculus with 24 samples.

Results

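Solute carriers are membrane proteins with Slc symbols that move small molecules and ions across the plasma membrane and the membranes of organelles. The genes described here were chosen by their mean level: they are the protein-coding genes with an Slc symbol that averaged 5 or more CPM over all 24 libraries, where CPM is counts per 1000000 counts of the library total. That choice left 146 of 371 such genes, and 96 of the 371 had no count in any library. All 146 were among the 10578 genes tested, and all are described here as measured in mouse acute myeloid leukaemia cells. Because the mean level chose them, that level is a description and not a finding. Just inside the limit were Slc35a5 at 5.05 CPM and Slc45a3 at 5.37 CPM, and just outside were Slc5a11 at 4.74 CPM and Slc2a6 at 4.42 CPM. Slc45a3 would stand at 4.85 CPM without the libraries of MLLT6 guide 2, and Slc35a5 at 4.68 CPM without the DOT1L knockout. The other 144 genes would stay above the limit whichever group was left out. Of the 146, 143 are carriers. Slc9a3r1, a scaffold protein that binds carriers, Slc7a6os and Slc4a1ap share the symbol without being carriers.

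A carrier binds its substrate on one side of a membrane, changes shape and releases it on the other. Some carriers only let a substrate run down its gradient, while others exchange it or couple it to sodium, protons or chloride. In blood cells they set the supply of glucose, amino acids, iron, copper, zinc and nucleosides, and many families sit in mitochondria, lysosomes or the Golgi apparatus rather than at the cell surface.

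Every group shares the same cells, which are driven by the MLL-AF9 fusion gene and make Cas9. Guide RNAs were delivered by lentivirus at an MOI of 0.3, transduced cells were selected with 2 ug/ml puromycin for 72 hours from 48 hours on, and RNA was taken on day 9. The 8 groups of 3 libraries are a non-targeting control (NT), a DOT1L knockout, and 2 separate guides each for MLLT10, MLLT1 (also called ENL) and MLLT6 (also called AF17). DOT1L methylates histone H3 in transcribed genes, and the other 3 proteins bind in one complex with it. Each knockout was set against the control. The sample descriptions give all 3 control libraries the same construct label, and likewise all 3 DOT1L libraries, so there the effects of 1 guide cannot be separated from those of the knockout. The labels do not state whether the replicates were separate cultures; the p-values then reflect only the spread among these libraries, which may be technical.

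Library totals ran from 2403044 to 7415397 counts. Dot1l mRNA was at 41.6 to 49.0 CPM in its knockout and 69.7 to 75.1 CPM in the control (log2 fold change -0.71, adjusted p = 0.000189). Mllt10 and Mllt6 mRNA lay below every control library in their knockouts without passing the test (adjusted p = 0.139 and 0.496). Mllt1 mRNA was not lower in its knockout, at 35 to 69.3 CPM against 21.8 to 41.2 CPM (adjusted p = 0.148), so directions refer to the libraries labelled MLLT1 knockout. The 11 neutrophil markers summed to 1355 to 1790 CPM per control library and to 96542 to 110129 CPM per DOT1L knockout library, and 11 of 11 rose. The 8 leukaemic progenitor markers summed to 822 to 965 CPM in the control and 394 to 445 CPM in the DOT1L knockout, and of 7 at 5 CPM or more 4 fell and 1 rose. Macrophage markers summed to 169 to 272 CPM and 42.0 to 56.5 CPM, with Mrc1, C1qa, C1qb and Marco without a count in both groups, erythroid markers to 66.4 to 93.2 CPM and 1.78 to 3.03 CPM, and B cell markers had no count. T cell markers reached at most 2.23 CPM in these groups, with Cd3e, Cd4 and Cd8a at no count, and the stromal and epithelial list, with no count of Epcam or Cdh1, was at most 1.25 CPM in the control and 14.6 to 20.3 CPM in the DOT1L knockout. These marker shifts moved with every DOT1L result below, and their part in those results was not tested. In bulk RNA, fewer cells of a type and less RNA per cell cannot be told apart.

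In the DOT1L knockout the carriers changed individually and in both directions, while their summed level on the normalised scale hardly moved. The 146 genes together held 10758 ± 948 CPM (SD, n = 3) in the control and 10765 ± 143 CPM (n = 3) in the DOT1L knockout, on the scale normalised by edgeR's TMM factors. Those factors were 0.863 to 0.88 in the DOT1L libraries and 0.999 to 1.073 in the control. The match of the sums, and the median below, depend on this scaling. On CPM of the library total the knockout sum would be lower than the control's. Of them 15 rose and 26 fell (edgeR's quasi-likelihood test, Benjamini-Hochberg adjusted p under 0.05 over all genes tested). Among all genes tested 21.8% were called, 11.2% higher and 10.7% lower. The 146 members were called in 28.1%, with 10.3% higher and 17.8% lower, and the 9154 tested genes at the same mean level of 5 CPM or more were called in 22.2%. The rises were therefore about as frequent as among all genes, and the falls more frequent, with no test of that difference. The median log2 fold change of the 146 was 0.00, beside 0.01 over all genes tested. Over all 146, 17.1% had every knockout library above every control library and 24% had every one below, beside 19.6% and 18.6% of all genes tested.

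**Figure D1:**
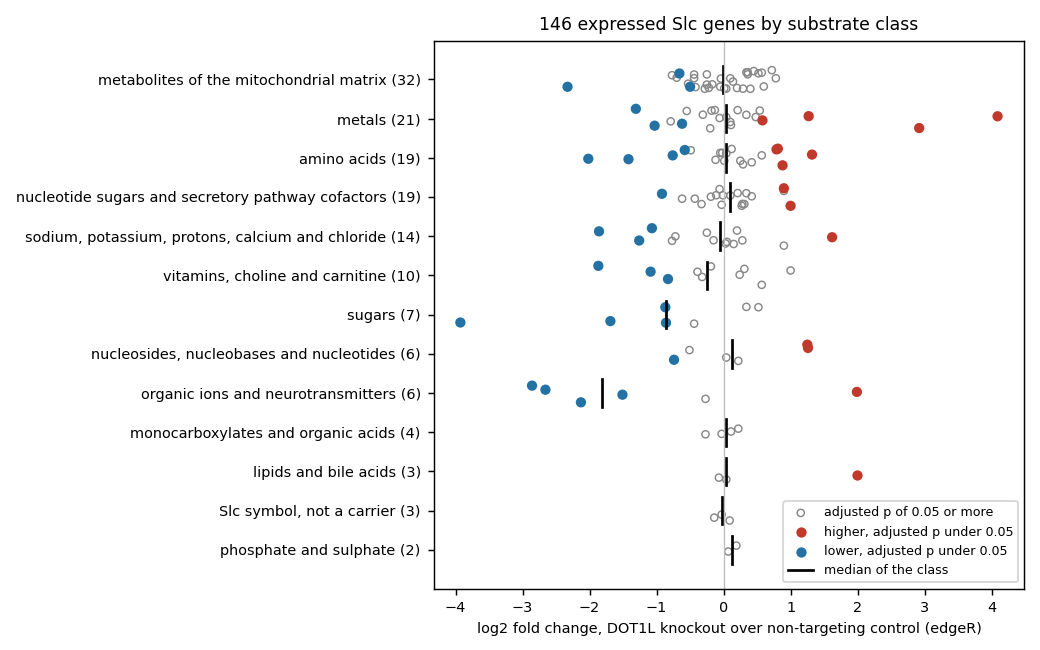
Log2 fold change of each of the 146 genes in the DOT1L knockout over the non-targeting control (horizontal axis), by substrate class with the number of members in brackets; filled points passed an adjusted p of 0.05, red higher and blue lower, open points did not, and black bars are class medians. Organic ions and sugars have their medians furthest below 0, at -1.82 and -0.86, and the largest rises are metal carriers.

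Metal carriers held the largest rises. Of 21 members 4 rose and 3 fell (33.3% called, beside 21.8% of all genes tested). Their median log2 fold change was 0.04. Their summed level was 895 ± 32.8 CPM in the control and 1213 ± 61.3 CPM in the DOT1L knockout (SD, n = 3 each). Most of that rise in the sum came from Slc40a1, Slc31a2 and Slc39a11, given below, and Slc39a11 was not called. Slc40a1 (ENSMUSG00000025993, mm10 chromosome 1, 45908068 to 45926523) encodes ferroportin, the known cellular exporter of iron. It was at 16.9, 8.76 and 8.94 CPM in the control libraries and at 176, 197 and 212 CPM in the DOT1L knockout libraries. Every knockout library stood far above every control library, and the log2 fold change was 4.09 ± 0.32 (SE, adjusted p = 1.11e-09). Slc31a2 (ENSMUSG00000066152, chromosome 4, 62262562 to 62298411), a copper transporter of endosomes and lysosomes, went from 7.01, 12.8 and 8.55 CPM to 62.1, 82.1 and 73.6 CPM (log2 fold change 2.92 ± 0.32, adjusted p = 2.54e-07). Its neighbour and relative Slc31a1, the copper importer of the cell surface, begins 62.3 kb beyond its end. It stood at 75.0, 93.2 and 85.5 CPM in the control and 67.6, 80.0 and 77.0 CPM in the knockout, groups that overlap (log2 fold change -0.18 ± 0.16, adjusted p = 0.487). Of these adjacent copper carriers Slc31a2 passed the test and Slc31a1 did not.

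Zinc carriers of the ZIP family, which bring zinc into the cytosol, went both ways. Slc39a8, which also carries manganese, was at 14, 15 and 15.9 CPM in the control and at 30.1, 41.9 and 36.2 CPM in the DOT1L knockout, a rise of 1.27 ± 0.25 on the log2 scale (adjusted p = 0.000521). Slc39a9, a ZIP protein of the Golgi apparatus, rose less, by 0.58 (adjusted p = 0.0312), and overlaps Erh on the other strand. Its call was lost without control replicate 2 or 3 or any 1 of the 3 knockout replicates (adjusted p = 0.163, 0.0597, 0.0957, 0.0648 and 0.0634). Slc39a10, found at the cell surface, fell by 1.03 ± 0.34 (adjusted p = 0.0334), from 12, 14.7 and 25.3 CPM to 8.92, 10.3 and 6.59 CPM. The control libraries of Slc39a10 were uneven, and without control replicate 3 its change was -0.66 (adjusted p = 0.236); without knockout replicate 1 or 3 the adjusted p was 0.0635 or 0.161. The zinc carrier Slc30a9 fell by 0.62 (adjusted p = 0.00171), and the magnesium carrier Slc41a1 fell by 1.31 (adjusted p = 0.0149). Slc41a1 lost its call without control replicate 3 or knockout replicate 1 or 2 (adjusted p = 0.0952, 0.0593 and 0.0559). Slc39a11, the metal carrier with the highest level per kilobase, was at 223, 187 and 183 CPM and at 259, 306 and 264 CPM, with a log2 fold change of 0.48 ± 0.18 that missed the threshold (adjusted p = 0.0587). It was called with the replicate block (0.0135), with the compared groups alone (0.0426) and without both libraries that stood apart (0.0327).

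Other iron, zinc and copper genes outside the Slc family moved too. Of 13 measured at 5 CPM or more, 4 rose and 3 fell (53.8% called, beside 21.8% of all genes tested). Tfrc, the transferrin receptor that takes up iron, rose by 0.77 (adjusted p = 0.0032) and Fbxl5, a ubiquitin ligase subunit that senses iron, by 1.02 (adjusted p = 0.00148). Fth1, the ferritin heavy chain that stores iron, fell by 0.67 (adjusted p = 0.0203). Mtf1, a transcription factor that senses zinc, rose by 1.34 (adjusted p = 6.26e-05), whereas the metallothioneins Mt1 and Mt2, which bind zinc and copper, fell by 0.64 and 0.87 (adjusted p = 0.0351 and 0.0109). The copper chaperone Atox1 rose by 0.62 (adjusted p = 0.0113), and the other 6 did not pass the test.

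**Figure D2:**
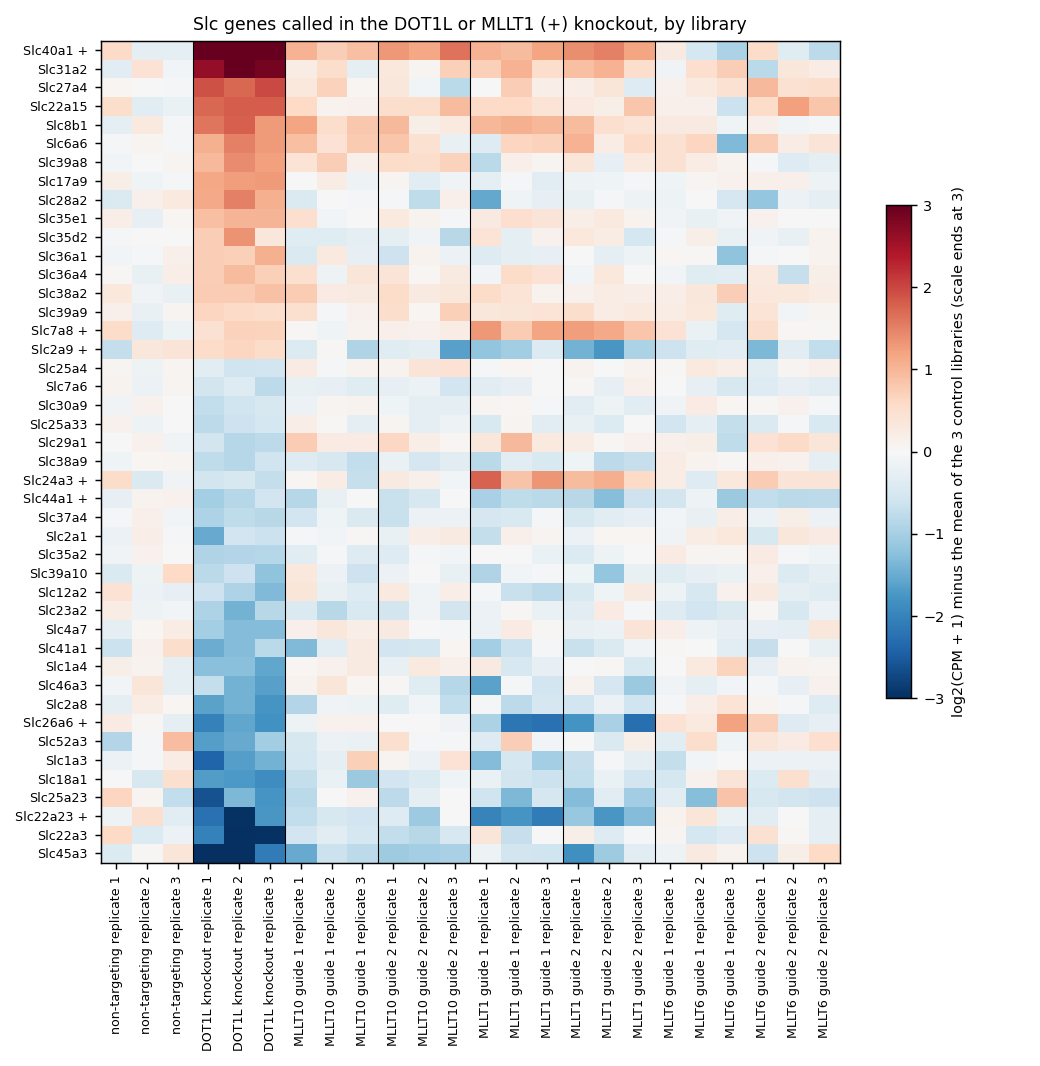
Heat map of the 44 genes called in the DOT1L knockout, in the MLLT1 knockout (marked +) or in both, 1 row a gene and 1 column a library; colour is log2(CPM + 1) minus the mean of the 3 control libraries, with the scale ending at -3 and 3. The 3 DOT1L knockout columns stand apart from all others, and Slc26a6 and Slc22a23 are blue in both the DOT1L and the MLLT1 columns.

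Among sugar carriers the calls were all falls. Of 7 members 4 fell and none rose (57.1% lower, beside 10.7% of all genes tested, with no test of the difference). The median log2 fold change was -0.86. The summed level was 348 ± 20.2 CPM in the control and 243 ± 33.6 CPM in the DOT1L knockout (SD, n = 3 each). Slc2a1, the glucose importer GLUT1 and the sugar carrier with the highest level per kilobase, was at 106, 136 and 117 CPM in the control and at 40.9, 79.6 and 75.6 CPM in the knockout. Its fall was 0.87 ± 0.25 on the log2 scale (adjusted p = 0.0122), but without control replicate 2 or without knockout replicate 1 the adjusted p was 0.0554 or 0.0711. Slc2a8, an intracellular glucose transporter, fell by 1.69 ± 0.26 (adjusted p = 4.22e-05), from 29.3, 41.9 and 36.9 CPM to 11.1, 12.8 and 9.80 CPM. Slc37a4, which brings glucose 6-phosphate into the endoplasmic reticulum and whose loss in humans causes neutropenia, fell by 0.86 ± 0.19 (adjusted p = 0.00138). Slc45a3, a member of a family that carries sugars with protons, was at 5.77, 8.13 and 10.5 CPM in the control and at 0, 0 and 1.07 CPM in the knockout, which held 6 counts of it in all 3 libraries. Its log2 fold change of -3.93 ± 0.66 (adjusted p = 9.3e-05) is therefore poorly fixed in size, and became -8.10 without knockout replicate 3. Slc45a3 lies 114.1 kb from Slc41a1 on chromosome 1, and these were the only neighbouring members within 200 kb of each other that were both called, among 9 such pairs. Slc50a1, at 45.8, 55.4 and 46.3 CPM in the control and 37.5, 43.0 and 29 CPM in the knockout, missed the threshold (adjusted p = 0.0879).

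Of 4 carriers of monocarboxylates and organic acids none was called by edgeR, and none stood at an unadjusted p under 0.05. They are Slc16a1, Slc16a3, Slc16a6 and Slc13a2. The Slc16 family, with Slc16a10 in place of Slc13a2, had 1 of 4 members at an unadjusted p under 0.05. Its lowest adjusted p was 0.0514. Slc16a3, the lactate exporter MCT4, was at 418, 375 and 266 CPM in the control and at 216, 319 and 344 CPM in the DOT1L knockout, overlapping groups (log2 fold change -0.27 ± 0.22, adjusted p = 0.449). Slc16a6 was at 0.11 on the same scale (adjusted p = 0.846). Of 3 partner proteins of carriers 2 fell (66.7% lower, beside 10.7% of all genes tested). Bsg, the chaperone that brings MCT1 and MCT4 to the surface, fell from 186 ± 59.7 to 80.2 ± 17.6 CPM (SD, n = 3 each; log2 fold change -1.21, adjusted p = 0.00116), and its relative Emb fell by 0.53 (adjusted p = 0.0356). Ostm1, partner of a lysosomal chloride exchanger, was at -0.31 (adjusted p = 0.422). Mpc2, a subunit of the mitochondrial pyruvate carrier that has no Slc symbol, rose by 0.98 (adjusted p = 3.34e-05). The other listed subunit, Mpc1, averaged 0 CPM in the control and 0.0594 CPM in the knockout and was not among the genes tested.

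Among 6 carriers of organic ions and neurotransmitters 4 fell and 1 rose (83.3% called, beside 21.8% of all genes tested). Their median log2 fold change was -1.82, and their sum went from 657 ± 49.4 to 460 ± 22.6 CPM (SD, n = 3 each). The calls and the median include Slc18a1 and Slc46a3, whose falls are limited as given below. Most of the fall in the sum came from Slc22a3 and from Slc48a1, which was not called. Slc22a3 (ENSMUSG00000023828, chromosome 17, 12418960 to 12507704), the organic cation transporter OCT3 that clears monoamines, was at 161, 80.1 and 94.5 CPM in the control and at 25.6, 8.18 and 12.8 CPM in the DOT1L knockout. The highest knockout library lay below the lowest control library, and the fall was 2.86 ± 0.35 on the log2 scale (adjusted p = 1.22e-06). Slc22a23 (ENSMUSG00000038267, chromosome 13, 34179158 to 34345182), a member of the same family with no established substrate, was at 11.1, 17.8 and 9.72 CPM and at 1.86, 0.711 and 3.03 CPM (log2 fold change -2.66 ± 0.40, adjusted p = 2.81e-05). Without knockout replicate 3 its log2 fold change was -3.32. Slc22a15, also of that family, went the other way, from 5.77, 2.81 and 3.11 CPM to 14.5, 15.6 and 15.7 CPM (log2 fold change 1.99 ± 0.35, adjusted p = 0.000156). Slc46a3, a lysosomal carrier, fell by 1.51 ± 0.43 (adjusted p = 0.0132), a call lost without control replicate 2 or knockout replicate 2 or 3 (adjusted p = 0.074, 0.0508 and 0.0938). Slc18a1, a vesicular monoamine transporter, fell by 2.13 ± 0.38 (adjusted p = 0.000223). But it overlaps the abundant gene Atp6v1b2 on the other strand, and no source used here gives the strand setting. Its reads therefore cannot be told apart from that gene's. Of the 146 members, 46 overlap another annotated gene by gene body, on either strand. Slc48a1, which moves haem out of lysosomes, had the highest level per kilobase of the class and was at 467, 580 and 472 CPM and at 414, 450 and 400 CPM (adjusted p = 0.356).

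The 250 bases upstream of the start of 3 changed carriers are given, a choice made after their values were seen: of members with such a window none rose more than Slc27a4, none but the sparsely counted Slc45a3 fell more than Slc22a3, and Slc22a23 fell in more than 1 knockout. They are credited to RefSeq (GRCm38.p6), read 5′ to 3′ on the gene's strand. Capitals mark matches, on either strand, to 4 motifs: CACGTG, the E-box bound by MYC and MITF family proteins, TTGCNNAA, the core bound by C/EBP proteins, GAGGAA, the core bound by PU.1, and GGGCGG, the GC box bound by SP1. The first, chr2:29802384-29802633 on the plus strand, lies before Slc27a4, which rose; the second, chr17:12507705-12507954 on the minus strand, before Slc22a3, which fell; the third, chr13:34345219-34345468 on the minus strand, before Slc22a23, which fell in the DOT1L and the MLLT1 knockout.
Slc27a4: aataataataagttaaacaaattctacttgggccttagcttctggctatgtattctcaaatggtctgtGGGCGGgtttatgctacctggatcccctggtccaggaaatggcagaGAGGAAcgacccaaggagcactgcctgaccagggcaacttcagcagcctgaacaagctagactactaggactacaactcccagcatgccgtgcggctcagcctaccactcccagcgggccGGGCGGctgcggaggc
Slc22a3: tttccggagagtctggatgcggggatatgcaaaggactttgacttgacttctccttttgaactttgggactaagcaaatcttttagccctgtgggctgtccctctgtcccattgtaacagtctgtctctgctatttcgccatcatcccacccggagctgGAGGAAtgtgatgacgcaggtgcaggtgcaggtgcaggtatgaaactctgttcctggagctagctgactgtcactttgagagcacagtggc
Slc22a23: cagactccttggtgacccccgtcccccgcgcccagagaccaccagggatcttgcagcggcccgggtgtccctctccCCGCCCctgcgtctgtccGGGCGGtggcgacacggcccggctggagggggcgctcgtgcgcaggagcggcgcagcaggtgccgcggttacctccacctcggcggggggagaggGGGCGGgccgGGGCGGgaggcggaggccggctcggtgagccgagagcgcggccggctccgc
Slc27a4 has 1 GAGGAA match and 2 GGGCGG matches, Slc22a3 has 1 GAGGAA match, and Slc22a23 has 4 GGGCGG matches. The 3 windows differ in base composition: G and C make up 54.4%, 51.2% and 78.4% of them, beside a median of 60.4% over the 7155 tested genes with such a window. Of 98 members with a window, 24.5% held GAGGAA and 69.4% held GGGCGG, beside 22.5% and 61.6% of tested genes. CACGTG was in 13.3% of members and 9.06% of tested genes, and TTGCNNAA in 8.16% and 7.18%. Of 9 members that rose and 19 that fell, GAGGAA was in 4 and 3, GGGCGG in 5 and 13, CACGTG in 1 and 1, and TTGCNNAA in 1 and 0. A match is a description of the letters and not of a bound site.

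Amino acid carriers moved in equal numbers each way. Of 19 members 4 rose and 4 fell (42.1% called, beside 21.8% of all genes tested), and the median log2 fold change was 0.04. Slc38a2, a sodium-coupled importer of small neutral amino acids, was at 196, 147 and 135 CPM in the control and at 269, 269 and 289 CPM in the DOT1L knockout (log2 fold change 0.79 ± 0.17, adjusted p = 0.0017). Its neighbour Slc38a1, 44.5 kb away on chromosome 15, was at 0.04 on that scale (adjusted p = 0.926). Slc6a6, the taurine importer, rose by 1.32 ± 0.38 (adjusted p = 0.0124), from 24.7, 27.5 and 25.3 CPM to 55, 75.4 and 64.0 CPM. Slc36a1 and Slc36a4, amino acid carriers found on lysosomes, rose by 0.88 ± 0.27 and 0.81 ± 0.23 (adjusted p = 0.02 and 0.0137). Slc36a1 lost its call without control replicate 1 or 2 or knockout replicate 3 (adjusted p = 0.0618, 0.0742 and 0.0981), and Slc36a4 without control replicate 2 or knockout replicate 2 (0.0864 and 0.0554).

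The amino acid carriers that fell include both members of the Slc1 family that were called. Slc1a3, a glutamate importer, fell by 2.02 ± 0.39 (adjusted p = 0.000469), from 10.7, 11.9 and 14.4 CPM to 1.49, 3.20 and 3.92 CPM. Slc1a4, which exchanges alanine, serine and cysteine, was at 56.5, 53.8 and 41.6 CPM and at 20.4, 20.3 and 16.4 CPM (log2 fold change -1.42 ± 0.23, adjusted p = 5.99e-05). Its relative Slc1a5, the glutamine exchanger, was at 293, 158 and 158 CPM in the control and 255, 247 and 242 CPM in the knockout (log2 fold change 0.29 ± 0.23, adjusted p = 0.411), and control replicate 1 set its control mean: without it the change was 0.63 (adjusted p = 0.0409). Slc38a9, the lysosomal carrier that reports arginine to the mTORC1 kinase, fell by 0.76 ± 0.20 (adjusted p = 0.00666), and the cationic amino acid exchanger Slc7a6 by 0.58 ± 0.17 (adjusted p = 0.0134, but 0.0945 without knockout replicate 3 and 0.064 with no filter on low counts). Slc3a2, the heavy chain that the Slc7 exchangers need at the surface, was the most abundant of the class per kilobase and stood at 1289, 843 and 845 CPM and at 1019, 921 and 801 CPM (adjusted p = 0.789). Of 13 genes of amino acid signalling at the lysosome, 2 rose and none fell. That is 15.4% called, not above the 21.8% of all genes tested. The GTPase gene Rragc rose by 0.72 (adjusted p = 0.00041) and Mlst8, an mTOR subunit, by 1.05 (adjusted p = 0.00314). Castor1, an arginine sensor whose mean over all libraries missed the level of 5 CPM used for that count, fell by 3.75 (adjusted p = 0.000294).

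Mitochondrial carriers of the Slc25 family were the largest class. Of 32 members none rose and 3 fell (9.38% called, beside 21.8% of all genes tested). Their sum was 3886 ± 57.8 CPM in the control and 3728 ± 81.0 CPM in the DOT1L knockout (SD, n = 3 each). Slc25a23, a calcium-regulated carrier of ATP-magnesium, fell by 2.33 ± 0.58 (adjusted p = 0.00479), from 15.7, 10.3 and 5.44 CPM to 0.743, 3.20 and 2.14 CPM. Slc25a33, a pyrimidine nucleotide carrier, fell by 0.66 (adjusted p = 0.0293), and Slc25a4, an ADP/ATP exchanger, by 0.50 ± 0.15 (adjusted p = 0.0159). Slc25a33 lost its call with no filter on low counts (adjusted p = 0.15) and on leaving out any 1 library of either group except control replicate 2 (0.0526 to 0.0916). Slc25a4 lost it with no filter (0.0796) and without control replicate 3 or knockout replicate 2 or 3 (0.056, 0.0756 and 0.0726). The other abundant ADP/ATP exchanger, Slc25a5, was at 477, 415 and 649 CPM and at 566, 635 and 775 CPM (log2 fold change 0.36 ± 0.29, adjusted p = 0.421). The phosphate carrier Slc25a3 was at 1503, 1475 and 1378 CPM and at 1342, 1230 and 1163 CPM (adjusted p = 0.374). One mitochondrial carrier outside the family rose: Slc8b1, which exports calcium from mitochondria in exchange for sodium, went from 8.66, 13.4 and 10.5 CPM to 34.6, 39.8 and 27.3 CPM (log2 fold change 1.62 ± 0.26, adjusted p = 6.74e-05). Mcu, the pore through which calcium enters mitochondria, rose by 0.73 (adjusted p = 0.0168).

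Carriers of nucleosides and nucleotides had 3 called of 6 (50%, beside 21.8% of all genes tested). Slc17a9, which loads ATP into vesicles and lysosomes, rose by 1.26 ± 0.17 (adjusted p = 4.55e-06), from 32.6, 26.3 and 28 CPM to 66.1, 70.0 and 71.8 CPM. Slc28a2, a sodium-coupled importer of purine nucleosides, rose by 1.25 ± 0.32 (adjusted p = 0.00536), from 14.8, 22.5 and 24.9 CPM to 45.7, 59.7 and 43.8 CPM. The equilibrative nucleoside transporter Slc29a1 fell by 0.74 ± 0.24 (adjusted p = 0.0253), from 59.4, 66.0 and 56 CPM to 41.2, 33.1 and 34.6 CPM. Slc29a1 lost its call without control replicate 2 or knockout replicate 2 or 3 (adjusted p = 0.0831, 0.091 and 0.0898). Its relatives Slc29a2 and Slc29a3 were not called, at -0.51 and 0.04 on the log2 scale (adjusted p = 0.597 and 0.953). Slc43a3, a purine nucleobase carrier, was at 104, 104 and 121 CPM and at 128, 128 and 126 CPM (adjusted p = 0.578).

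In the secretory pathway, 2 of 19 carriers of nucleotide sugars and cofactors rose and 1 fell (15.8% called, beside 21.8% of all genes tested). Slc35a2, which brings UDP-galactose into the Golgi apparatus, fell by 0.92 ± 0.17 (adjusted p = 0.000371), from 30.5, 35.7 and 32.3 CPM to 17.1, 17.4 and 17.6 CPM. Slc35e1, with no established substrate, rose by 1.00 ± 0.17 (adjusted p = 0.0001), and Slc35d2, a carrier of UDP-N-acetylglucosamine, by 0.90 ± 0.29 (adjusted p = 0.0248). Slc35d2 was at 21.9, 33.8 and 16.2 CPM in the knockout, and without knockout replicate 2 its change was 0.58 (adjusted p = 0.201). Its call was also lost without any 1 control replicate (0.0663, 0.0741 and 0.0666), with no filter on low counts (0.0516) and with the compared groups alone (0.0589). Slc35c1, the GDP-fucose carrier that human neutrophils need to make selectin ligands, was at 155, 146 and 179 CPM and at 214, 191 and 175 CPM (log2 fold change 0.27 ± 0.21, adjusted p = 0.415). Slc35b1, which brings ATP into the endoplasmic reticulum, was at 0.10 on that scale (adjusted p = 0.77).

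Of 14 carriers of sodium, potassium, protons, calcium and chloride, 1 rose, the calcium exporter Slc8b1 of mitochondria, and 3 fell. The share called was 28.6%, beside 21.8% of all genes tested. Their sum was 290 ± 7.73 CPM in the control and 234 ± 9.27 CPM in the DOT1L knockout (SD, n = 3 each). Slc26a6 (ENSMUSG00000023259, chromosome 9, 108853283 to 108913049), an exchanger of chloride, bicarbonate and oxalate, fell by 1.86 ± 0.37 (adjusted p = 0.000567), from 80.8, 70.1 and 56 CPM to 16, 22.4 and 18.7 CPM. Slc4a7, which brings sodium and bicarbonate into the cell, fell by 1.26 ± 0.22 (adjusted p = 0.000127), and Slc12a2, the sodium, potassium and chloride importer, by 1.07 ± 0.32 (adjusted p = 0.0161, but 0.0873 without control replicate 1 and 0.109 without knockout replicate 3).

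Vitamin, choline and carnitine carriers had 3 falls and no rise among 10 (30% lower, beside 10.7% of all genes tested). Slc23a2, a vitamin C importer, fell by 1.09 ± 0.23 (adjusted p = 0.00119), from 26.8, 20.3 and 21.4 CPM to 11.5, 7.82 and 12.3 CPM. Slc44a1, a choline carrier, fell by 0.83 ± 0.27 (adjusted p = 0.0292), a call lost without control replicate 2 or 3 or knockout replicate 1 or 2 (adjusted p = 0.0841, 0.0902, 0.0975 and 0.0859). The riboflavin carrier Slc52a3 fell by 1.87 ± 0.47 (adjusted p = 0.00532), but its control libraries spread from 3.30 to 14 CPM, and without control replicate 3 the change was -1.22 (adjusted p = 0.0881). The folate carrier Slc19a1 was at -0.19 (adjusted p = 0.668) and Slc44a2, which carries a human neutrophil antigen, at -0.32 (adjusted p = 0.546) on the log2 scale.

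Among 3 carriers of lipids and bile acids, Slc27a4 (ENSMUSG00000059316, chromosome 2, 29802634 to 29817522), a fatty acid transport protein, rose from 9.48, 9.07 and 8.55 CPM to 36.8, 32.3 and 38.3 CPM. The libraries of each group lay close together, and the log2 fold change was 1.99 ± 0.29 (adjusted p = 2.2e-05). Slc10a3, of the bile acid carrier family, was at 0.04 (adjusted p = 0.952) on that scale. Neither phosphate carrier was called, Slc20a1 at 0.07 (adjusted p = 0.886) and Slc20a2 at 0.19 (adjusted p = 0.868), nor was any of the 3 genes that are not carriers, among them Slc9a3r1 (adjusted p = 0.78) and Slc7a6os (adjusted p = 0.952).

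By location, the members of endosomes and lysosomes were called most often, 8 of 12 (66.7%, beside 21.8% of all genes tested), 4 in each direction. Slc31a2, Slc17a9, Slc36a1 and Slc36a4 rose, and Slc2a8, Slc46a3 and Slc38a9 fell, as did the reads counted to Slc18a1, which cannot be told apart from those of Atp6v1b2. Without Slc18a1 it was 7 of 11, and of these Slc36a1, Slc36a4 and Slc46a3 lost their calls under at least 1 alternative. At the plasma membrane 20 of 61 were called, 6 higher and 14 lower. The endoplasmic reticulum and Golgi apparatus had 5 of 24, and mitochondria, counted as the Slc25 family and Slc8b1, had 4 of 33. Among transporters that are not solute carriers, 8 of 18 ABC transporters, which spend ATP to move their substrates, rose and 1 fell. Their share called was 50%, with 44.4% higher, beside 21.8% called and 11.2% higher among all genes tested. Of 13 ATPase pumps 2 rose and 3 fell (38.5% called). Among 18 transporters without an Slc symbol 5 rose and 2 fell (38.9% called). Pqlc2, an exporter of cationic amino acids from lysosomes, rose by 1.64 (adjusted p = 0.00153) and Spns1, a lysosomal lipid exporter, by 1.04 (adjusted p = 0.00641). The mitochondrial serine carrier family member Sfxn3 fell by 1.00 (adjusted p = 0.000909).

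The most abundant carriers are given here with their calls in the DOT1L knockout. Per kilobase of exon, which allows levels of different genes to be compared, Slc25a5 stood at 312 CPM per kb in the control, Slc3a2 at 281, Slc25a3 at 262 and Slc48a1 at 184. None of these 4 passed the test. The median member stood at 6.09 CPM per kb and the lowest, Slc22a15, at 0.274. Of the 10 members with the highest level per kilobase 1 was called, Slc25a4 at 78.6 CPM per kb, beside 28.1% of all 146 members. With so few genes this does not tie level to change, and the difference was not tested. The most abundant genes that fell by more than 1 on the log2 scale were Slc22a3 at 24.8 and Slc1a4 at 13.0 CPM per kb.

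**Figure D3:**
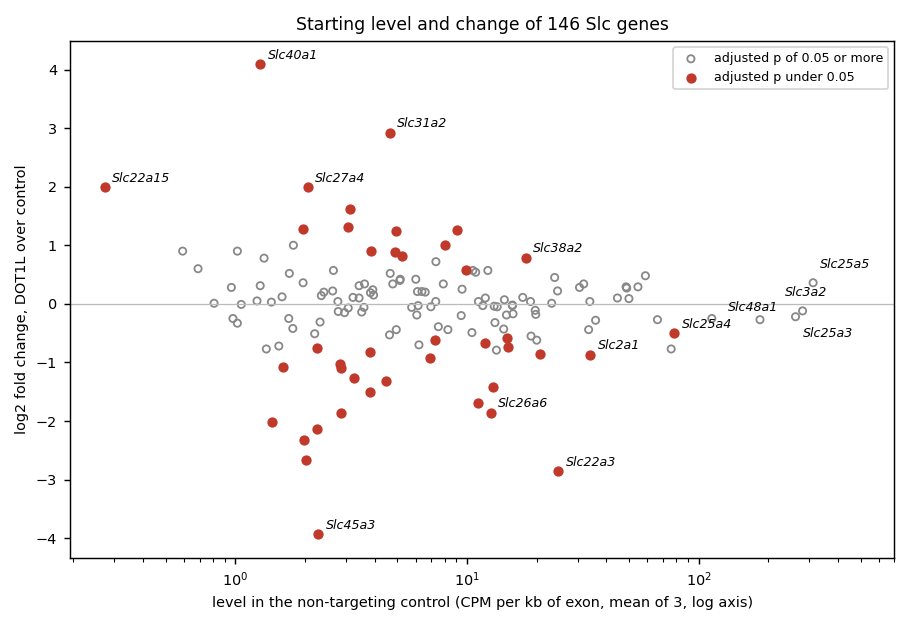
Level of each of the 146 genes in the non-targeting control (horizontal log axis, CPM per kb of exon, mean of 3 libraries) against its log2 fold change in the DOT1L knockout (vertical axis); red points passed an adjusted p of 0.05. The genes above 100 CPM per kb lie near 0 and the largest changes lie below 25 CPM per kb. Among these is Slc22a15 (log2 fold change 1.99), at the lowest level of all, 0.274 CPM per kb.

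In the MLLT1 knockout 3 members rose and 4 fell, 4.79% of 146, beside 2.58% of all genes tested (0.974% higher and 1.61% lower) and 2.77% of those at the same mean level. The same 3 control libraries served every comparison. Slc22a23 was at 2.35, 2.92 and 2.16 CPM in the libraries of guide 1 and 5.12, 3.03 and 4.46 CPM in those of guide 2, all below the lowest control library at 9.72 CPM. Its fall was 2.00 ± 0.31 on the log2 scale (adjusted p = 0.000509), and each guide passed alone (adjusted p = 0.00174 and 0.0213). Slc26a6 was at 35, 14.4 and 13.6 CPM in the libraries of guide 1 and 19, 34.1 and 13.4 CPM in those of guide 2, again all below the control's 56 CPM. It fell by 1.68 ± 0.29 (adjusted p = 0.00197), with each guide alone past the threshold (adjusted p = 0.0146 and 0.0228). Both genes also fell in the DOT1L knockout, and the difference between the knockouts was 0.66 ± 0.38 for Slc22a23 (adjusted p = 0.281) and 0.18 ± 0.32 for Slc26a6 (adjusted p = 0.79), MLLT1 over DOT1L, so no difference was detected, which does not show that there is none.

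Slc7a8 (ENSMUSG00000022180, chromosome 14, 54722209 to 54781946), an exchanger of large neutral amino acids that pairs with Slc3a2, rose in the MLLT1 knockout. Its libraries held 126, 87.1 and 117 CPM for guide 1 and 122, 112 and 91.5 CPM for guide 2, and those of the control 74.6, 38.5 and 45.5 CPM (log2 fold change 1.05 ± 0.21, adjusted p = 0.0071; guides alone 0.0255 and 0.0272). In the DOT1L knockout it was at 70.2, 82.5 and 81.6 CPM and was not called (log2 fold change 0.57 ± 0.24, adjusted p = 0.0896), and the 2 knockouts did not differ past the threshold (adjusted p = 0.107). Slc40a1 was at 23.9, 22.2 and 26.5 CPM for MLLT1 guide 1 and 30.7, 33 and 26.3 CPM for guide 2, a rise of 1.24 ± 0.28 (adjusted p = 0.0163; guides alone 0.102 and 0.0228). It lay 2.86 ± 0.22 on the log2 scale below the DOT1L knockout (adjusted p = 1.36e-09). The neutrophil markers summed to 2882 to 3744 CPM in the MLLT1 libraries and to 1355 to 1790 CPM in the control, with 7 of 11 higher. Erythroid markers summed to 10.5 to 21.2 CPM there and 66.4 to 93.2 CPM in the control, and macrophage markers to 98.2 to 147 CPM and 169 to 272 CPM, with no count of C1qa, C1qb or Marco. Progenitor markers summed to 735 to 807 CPM and 822 to 965 CPM. The part of these shifts in the MLLT1 results was not tested.

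The other 3 calls in the MLLT1 knockout were near the threshold. Slc44a1 fell by 0.92 ± 0.23 (adjusted p = 0.0273), and its difference from the DOT1L knockout was -0.09 (adjusted p = 0.86). Slc2a9, a carrier of urate and glucose, fell by 1.44 ± 0.36 (adjusted p = 0.032) to between 1.71 and 5.85 CPM, a range that overlaps the control's 4.53 to 10.9 CPM. Slc24a3, an exchanger of sodium for calcium and potassium, rose by 1.19 ± 0.31 (adjusted p = 0.0343) to between 9.42 and 22.5 CPM. Slc24a3 and Slc2a9 were not called in the DOT1L knockout, and the difference between the knockouts passed the test for both, at 1.97 ± 0.32 (adjusted p = 6.86e-05) and -1.96 ± 0.34 (adjusted p = 0.000166). The calls of the MLLT1 comparison lean on the control libraries: without control replicate 2 or 3 no member was called higher and 2 were called lower, namely Slc22a23 and Slc26a6, and without control replicate 1 it was 6 higher. In the fits without control replicate 2 and without control replicate 3, the adjusted p was 0.102 and 0.0718 for Slc7a8, 0.169 and 0.139 for Slc40a1, 0.171 and 0.19 for Slc44a1, 0.243 and 0.238 for Slc2a9, and 0.285 and 0.204 for Slc24a3. Without MLLT1 guide 1 replicate 1 or MLLT1 guide 2 replicate 2, 2 were called lower, and Slc44a1, Slc2a9 and Slc24a3 all lost their calls (adjusted p from 0.0524 to 0.0857). Slc2a9 also lost its call without replicate 2 of guide 1 (0.0714) or replicate 1 of guide 2 (0.0619), and Slc24a3 without replicate 3 of guide 1 (0.0551) or replicate 1 of guide 2 (0.0588). With both libraries that stood apart left out the adjusted p was 0.0567 for Slc2a9 and 0.0596 for Slc24a3, and with the compared groups alone it was 0.0592 for Slc7a8, 0.0696 for Slc44a1, 0.122 for Slc2a9 and 0.143 for Slc24a3.

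**Figure D4:**
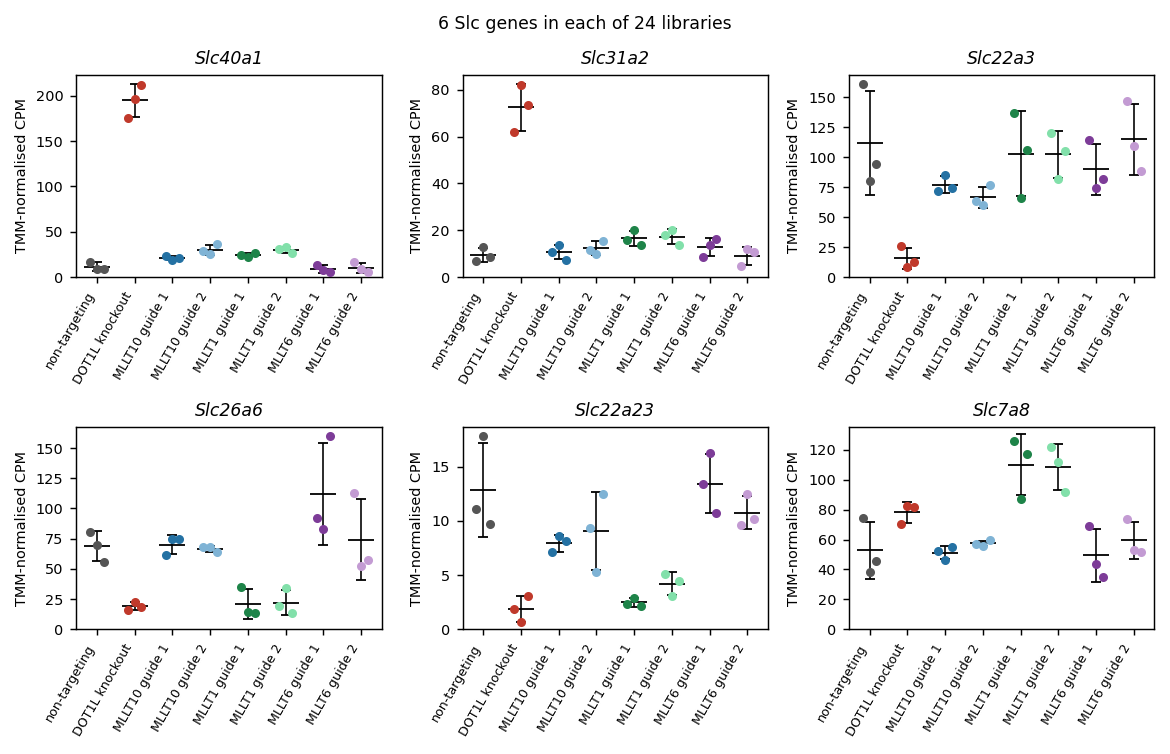
TMM-normalised CPM (vertical axes, from 0) of 6 carriers in each of the 24 libraries by group; points are libraries, the horizontal bar is the group mean and the error bar 1 SD (n = 3). Slc40a1 and Slc31a2 are high in the DOT1L knockout, Slc22a3 is low in that knockout, Slc26a6 and Slc22a23 are low there and with both MLLT1 guides, and Slc7a8 is highest with the MLLT1 guides.

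Several large DOT1L changes were not matched in the MLLT1 knockout, and for these the difference itself passed the test. Slc22a3 was at 137, 65.7 and 106 CPM for MLLT1 guide 1 and 120, 81.4 and 105 CPM for guide 2, from just below the lowest control library to within the control's range, and lay 2.73 ± 0.32 on the log2 scale above the DOT1L knockout (adjusted p = 7.07e-07). Slc31a2 was at 13.6 to 20 CPM and lay 2.10 ± 0.24 lower than in the DOT1L knockout on that scale (adjusted p = 3.79e-07), with a log2 fold change against the control of 0.82 (adjusted p = 0.141). Slc45a3 lay 3.10 ± 0.62 above the DOT1L knockout (adjusted p = 0.000694).

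No member was called in the MLLT10 knockout by edgeR, where 0.473% of all genes tested were. At an unadjusted p under 0.05 there were 16 of 146 (11%), beside 9.58% of all genes tested, and the DESeq2 test called 1, higher, beside 0.993% of all genes. Neutrophil markers summed to 2730 to 3832 CPM in the MLLT10 libraries (5 of 11 higher), against 1355 to 1790 CPM in the control, macrophage markers to 112 to 168 CPM against 169 to 272 CPM, erythroid markers to 30.7 to 70.5 CPM against 66.4 to 93.2 CPM and progenitor markers to 658 to 777 CPM against 822 to 965 CPM. Their part in the values of this comparison was not tested. Slc40a1 came closest. It was at 23.7, 19.2 and 21.4 CPM for guide 1 and 28.7, 25.7 and 36.3 CPM for guide 2, each above every control library, with a log2 fold change of 1.15 ± 0.28 (adjusted p = 0.0736). Without control replicate 1, 1 member was called higher. The level lay far below that of the DOT1L knockout (difference -2.94 on the log2 scale, adjusted p = 7.15e-10). Slc22a3, at 59.7 to 84.7 CPM over both guides, had a log2 fold change of -0.65 ± 0.26 (adjusted p = 0.391) and was 2.22 ± 0.31 above the DOT1L knockout (adjusted p = 1.04e-05).

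No member was called in the MLLT6 knockout by edgeR, where 0% of all genes tested were. There were 8 members at an unadjusted p under 0.05 (5.48%, beside 6.87% of all genes tested) and none by the DESeq2 test, which called 0 genes in all, and the lowest adjusted p was 0.699. Slc40a1 was at 13.4, 7.36 and 5.27 CPM for guide 1 and 16.6, 8.32 and 5.99 CPM for guide 2, overlapping the control. Slc26a6 was at 92.2, 83.4 and 160 CPM for guide 1 and 113, 52.3 and 57.5 CPM for guide 2 (log2 fold change 0.41 ± 0.30, adjusted p = 0.757). The 160 CPM came from MLLT6 guide 1 replicate 3, which stood apart from its group over all genes. No member differed past the threshold between the 2 guides of any gene. The summed level of all members was 11254 ± 274, 11231 ± 315 and 11163 ± 350 CPM in the MLLT10, MLLT1 and MLLT6 knockouts (SD, n = 6 each), within the spread of the control.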

How the data were processed

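Gene-level read counts, not normalised, were deposited by the authors for 24 libraries. Per the submitters' processing notes, bcl2fastq, HISAT2, HTSeq and DESeq2 were used with mm10. Tool versions, annotation and strand setting: not given in the sources used here. Of 43629 Ensembl identifiers, 42462 matched GENCODE M21 (GRCm38, the assembly of mm10). Groups and replicate numbers came from the sample titles. Chi-square values per gene between replicates ran from 4.76 to 34.31, so none was a duplicate.

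Counts were tested with edgeR 4.0.16 (R 4.3.3): TMM scaling, edgeR's filter on low counts, 1 quasi-likelihood fit of all 8 groups, Benjamini-Hochberg adjustment over 10578 genes and a threshold of 0.05. Both guides of a gene were averaged in the contrast. Fold changes are log2, and their SE, worked back from the F statistic, is approximate. Levels are TMM-normalised CPM, but the choice of members used CPM of the library total. The fit was tested on simulated data. Alternatives were no filter, DESeq2 1.42.0 size factors and test, the replicate number as a block, the compared groups alone, leaving out each library, leaving out both libraries least like their groups (replicate 1 of MLLT1 guide 1 and replicate 3 of MLLT6 guide 1), and members at a mean of 1 or 10 CPM.

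Members, substrate classes and gene lists were chosen with earlier results of these data known. Named genes were the 12 largest called rises and falls in the DOT1L knockout, the 2 members per class with the highest level per kilobase, and every call in other knockouts. Other called members are given so that all 41 are covered, and neighbours, relatives and list genes were chosen after their values were seen. The class of Slc17a9 was corrected, and Slc4a1ap set apart as no carrier, after values were seen. Promoters came from RefSeq for members whose start lay within 500 bases of the GENCODE start. Slc40a1 had no such entry. Some genes are not reported here. Figures used matplotlib 3.10.9.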

Additional observations from a re-analysis of the deposited data

How the results depend on the processing

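In the DOT1L knockout, 26 of the 41 called members kept their call under every alternative, 15 lost it under at least 1 and none reversed. Their numbers higher and lower were 15 and 26, 18 and 28 without both libraries that stood apart, 19 and 28 with the replicate block, and 11 to 19 and 19 to 25 on leaving out single libraries. In the MLLT1 knockout, Slc22a23 and Slc26a6 kept their calls throughout and the other 5 lost theirs under at least 1 alternative. The number higher was 3, but 5 with the replicate block, 1 with the compared groups alone and 0 to 6 on leaving out single libraries. The number lower was 4, but 2 with the compared groups alone, 2 at a mean of 10 CPM or more, and 2 to 4 on leaving out single libraries. In the MLLT10 knockout, 0 were higher and 0 lower, but 2 and 1 with no filter on low counts. There, 1 was higher with the DESeq2 test, without both libraries that stood apart and with the replicate block, and 0 to 1 on leaving out single libraries. In the MLLT6 knockout, 0 were higher, but 1 with no filter, and 0 to 0 on leaving out single libraries. The cause of these shifts was not tested. Same-numbered libraries deviated together, with every correlation above 0.1, in 6 of the 28 group pairs. These include the control with guide 1 of MLLT10 and guide 2 of both MLLT1 and MLLT6. They do not include the control with DOT1L or with the other guide of each gene. The correlations of the control with DOT1L were all positive, at 0.24, 0.06 and 0.133. By the limit of 0.1 no comparison was paired throughout, and the replicate block stays an alternative. At these depths, genes with few counts, such as Slc45a3 with 6 in the DOT1L knockout, have poorly fixed fold changes.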
